A study of Mus musculus with 16 samples.

Results

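Genes of microbial pattern recognition encode the receptors, co-receptors and adaptors with which immune cells detect bacterial, fungal and viral molecules. The 34 genes described here are a list of symbols given by name and are 34 of the 35647 gene identifiers in the deposited table. By role they were 5 surface Toll-like receptors, 7 endosomal Toll-like receptors, 3 genes grouped as co-receptors for lipopolysaccharide (Cd14, Ly96 and Cd180), 9 NOD-like receptors and inflammasome genes, 4 C-type lectin receptors, 5 adaptors and signal regulators and 1 RIG-I-like receptor. Each of the 34 symbols matched 1 identifier, and all 34 passed the filter on low counts in every comparison. They were measured by bulk RNA sequencing of immune cells isolated from the lamina propria, the connective tissue under the gut epithelium, on a Percoll gradient. The 4 groups held 4 mice each, with 16 libraries in all: ileum of mice colonized with Δchat Bifidobacterium breve, ileum of mice colonized with wild-type (WT) B. breve, colon of mice with Δchat B. breve, and colon of mice with WT B. breve. The Δchat strain lacks acetylcholine production, per the design text. The mice of all 4 groups were of wild-type genotype, were raised germ-free in isolators, received 1 of the strains, and were kept in gnotobiotic isocages for the 5 weeks for which they carried it. Their age is not given in the sources used here. The design compares Δchat with WT B. breve in each tissue, and it holds both tissues for each strain. Mice are called Δchat mice or WT mice below by the bacterium they carried. Which mice shared a cage is not given in the sources used here, so p-values measure only the spread between these libraries.

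Toll-like receptors at the cell surface bind lipopeptides, lipopolysaccharide and flagellin, whereas those in endosomes bind nucleic acids or, in the mouse, bacterial ribosomal RNA and profilin. NOD-like receptors survey the cytosol and either signal through Ripk2 or assemble inflammasomes that activate Casp1, and C-type lectin receptors bind sugars of fungi and bacteria and signal through Card9. In the gut lamina propria, macrophages, dendritic cells and B cells carry different sets of these receptors, and the gut macrophage is known for weak inflammatory responses to microbial ligands.

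Promoter sequences of 5 receptors are shown because their levels separated the tissues in opposite directions: Tlr13, Tlr12 and Tlr8 were higher in ileum, and Tlr9 and Cd180 were higher in the colon of WT mice. The windows run from 250 bases before to 50 bases after the annotated start, are read 5′ to 3′ along the gene's strand, and come from RefSeq on build GRCm38.p6. RefSeq held such windows for 27 of the 34 genes. Capitals mark GAGGAA, a core bound by the myeloid and B cell factor PU.1, or its complement TTCCTC. The window of Tlr13 lies at chrX:106143025-106143324 on the plus strand, that of Tlr12 at chr4:128618570-128618869 on the minus strand, that of Tlr8 at chrX:167264280-167264579 on the minus strand, that of Tlr9 at chr9:106222348-106222647 on the plus strand and the first of the Cd180 windows at chr13:102693297-102693596 on the plus strand.
Tlr13: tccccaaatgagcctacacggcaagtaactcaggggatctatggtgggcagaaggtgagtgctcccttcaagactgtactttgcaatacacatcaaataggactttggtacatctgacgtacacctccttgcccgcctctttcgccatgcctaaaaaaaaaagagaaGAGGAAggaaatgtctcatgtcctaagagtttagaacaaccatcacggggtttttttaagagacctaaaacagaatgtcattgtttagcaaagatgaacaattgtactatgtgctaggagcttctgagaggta
Tlr12: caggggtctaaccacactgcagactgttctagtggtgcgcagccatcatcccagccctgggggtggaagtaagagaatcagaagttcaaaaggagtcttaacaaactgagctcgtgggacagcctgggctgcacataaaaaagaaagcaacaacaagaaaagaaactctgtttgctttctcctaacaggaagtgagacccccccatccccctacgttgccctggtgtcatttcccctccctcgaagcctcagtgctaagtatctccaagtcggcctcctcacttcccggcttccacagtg
Tlr8: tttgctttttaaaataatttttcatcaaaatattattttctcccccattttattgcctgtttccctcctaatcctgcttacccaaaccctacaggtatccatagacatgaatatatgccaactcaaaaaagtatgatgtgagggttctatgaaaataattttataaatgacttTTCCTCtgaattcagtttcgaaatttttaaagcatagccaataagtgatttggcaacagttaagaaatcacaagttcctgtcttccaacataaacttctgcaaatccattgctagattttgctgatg
Tlr9: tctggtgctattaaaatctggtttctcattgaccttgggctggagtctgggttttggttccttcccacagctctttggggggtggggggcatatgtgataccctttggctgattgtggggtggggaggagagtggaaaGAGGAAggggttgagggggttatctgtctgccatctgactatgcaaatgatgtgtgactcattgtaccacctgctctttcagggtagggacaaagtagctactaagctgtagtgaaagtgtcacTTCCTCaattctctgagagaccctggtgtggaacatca
Cd180: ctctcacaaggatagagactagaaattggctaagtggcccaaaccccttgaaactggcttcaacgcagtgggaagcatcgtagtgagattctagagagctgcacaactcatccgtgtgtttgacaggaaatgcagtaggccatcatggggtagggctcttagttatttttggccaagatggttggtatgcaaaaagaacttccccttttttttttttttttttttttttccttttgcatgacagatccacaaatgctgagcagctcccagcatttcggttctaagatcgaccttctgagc

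The Tlr13 window held 1 match, whose first base lies at -83 from the start, and the Tlr8 window held 1 match on the other strand at -77. The Tlr9 window held 2 matches, at -112 and, on the other strand, at 12 bases into the transcript. No match lay in the windows of Tlr12 and Cd180, which says only that these letters are not there. Searched on both strands, GAGGAA lay in 28.3% of all 32851 promoter windows of this length and in 16 of the 35 windows of the receptors and adaptors (45.7%), since some genes have several starts. GAAA followed after any 2 bases by a second GAAA, letters of interferon response elements, lay in 4 of the 35 windows (11.4%), against 3.44% of all windows. GGGAC followed at once by TTTCC, letters of an NF-kB site, lay in 0 of the 35 and in 0.155% of all windows. A match of one motif may overlap a match of another, and each match is a description of letters and not of binding.

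Libraries held between 15940467 and 23612561 estimated counts. Levels are given as CPM, counts scaled to a common library size over the 16 libraries. Markers of macrophages summed to 1480.4 to 5663 CPM in ileum Δchat, 1887 to 2695 CPM in ileum WT, 976 to 1681 CPM in colon Δchat and 919.7 to 1119 CPM in colon WT libraries. Ileum Δchat replicate 2 stood apart with 5663 CPM, against 1480.4 to 2629 CPM in the other 3 libraries of its group. Markers of B cells summed to 318 to 1645 CPM in ileum Δchat, 483 to 1016 CPM in ileum WT, 1293 to 2319 CPM in colon Δchat and 1948 to 3548 CPM in colon WT libraries, and the 4 ileum Δchat libraries were split, with 1645 and 1409 CPM in replicates 1 and 4 and 349 and 318 CPM in replicates 2 and 3. Markers of epithelium summed to 3258 CPM in colon Δchat replicate 3, against 233 to 275 CPM in the other 3 colon Δchat libraries and 44.7 to 198 CPM in colon WT libraries. Markers of plasma cells were the most abundant list, at 66307 to 113742 CPM in ileum Δchat, 108264 to 197708 CPM in ileum WT, 23375 to 32749 CPM in colon Δchat and 44694 to 86591 CPM in colon WT libraries. Of the defining markers of the cell types listed, Epx of eosinophils was at 0 in both colon groups, and no other marker was at 0 throughout a group.

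**Figure D1:**
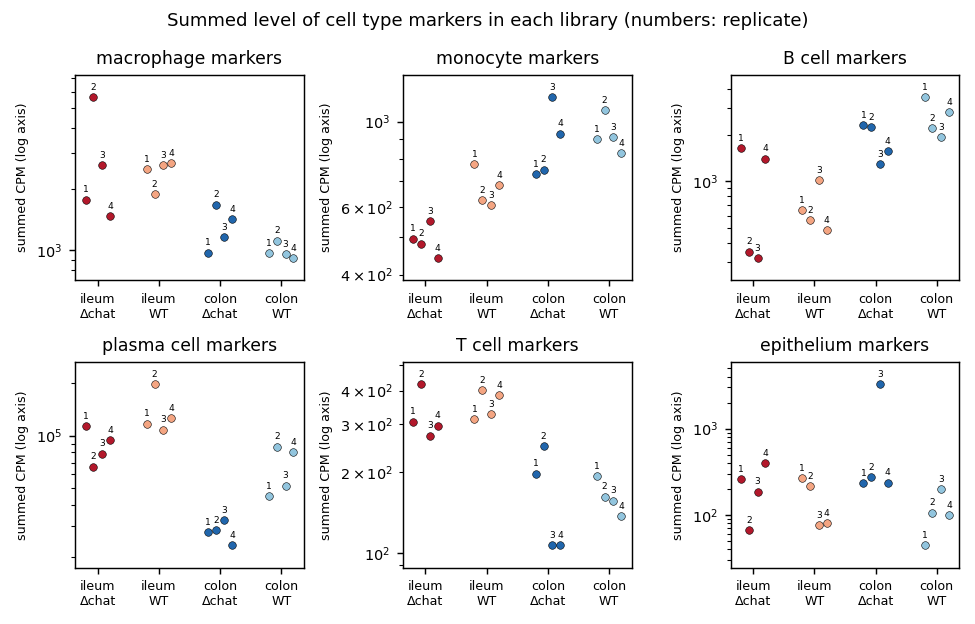
Summed CPM (log axis) of the markers of 6 cell types in each of the 16 libraries, with the replicate number beside each point. Macrophage markers reach 5663 CPM in ileum Δchat replicate 2, and epithelial markers reach 3258 CPM in colon Δchat replicate 3.

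All 34 genes were detected in all 4 groups, but their levels differed widely. Per kilobase of annotated exon, Clec7a, the beta-glucan receptor of myeloid cells, reached a mean level of 53.3, 49.7, 24.4 and 17.6 CPM per kb in ileum Δchat, ileum WT, colon Δchat and colon WT libraries. Cd14, which passes lipopolysaccharide to the Tlr4 complex, reached 39.7, 42.99, 28.1 and 19.3 CPM per kb in the same order of groups. At the other end, Tlr5, the flagellin receptor, had 0.296, 0.416, 0.215 and 0.281 CPM per kb. These levels per kb are approximate, since exon lengths came from an annotation of the older build GRCm38.

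Ileum and colon differed in the genes of microbial recognition within mice of either strain. In Δchat mice, 7 of the 34 genes were higher in ileum at an adjusted p under 0.05 (Tlr8, Tlr12, Tlr13, Nlrp3, Clec4n, Card9 and Dhx58), where 8.31% of all 15198 genes tested were, and 1 was lower (Irak3), where 5.03% of all genes were. In WT mice, 12 were higher in ileum (Tlr3, Tlr8, Tlr12, Tlr13, Nod1, Nlrp3, Nlrp1b, Clec7a, Clec4n, Myd88, Ticam1 and Card9), against 13.7% of all genes. In the same mice 5 were lower in ileum (Tlr1, Tlr9, Cd180, Nlrc4 and Irak3), against 15.1% of all genes. As shares of the 34, these counts are 20.6% higher and 2.94% lower in Δchat mice, and 35.3% higher and 14.7% lower in WT mice. In either direction 8 of the 34 were called in Δchat mice, against 13.3% of all genes, and 17 in WT mice, against 28.8%. At an unadjusted p under 0.05 there were 13 in Δchat mice, against 28.7% of all genes, and 21 in WT mice, against 40.9%. Log2 fold changes were above 0 for 25 of the 34 in Δchat mice, against 47.2% of all genes, and for 27 in WT mice, against 45.8%. The median log2 fold change of ileum over colon was 0.31 in Δchat mice, where all genes had -0.02, and 0.49 in WT mice, where all genes had -0.04. The genes called in both strains numbered 7, which is 87.5% of those called in Δchat mice and 41.2% of those called in WT mice. The same shares were not counted over all genes, so these say nothing particular to the 34. Every gene called was also tested for a difference of the tissue effect between strains, and none of the 34 passed that test.

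Tests were edgeR quasi-likelihood tests, adjusted over all genes tested by the Benjamini-Hochberg method, a gene is called at an adjusted p under 0.05, and log2 fold changes are given with their standard error. CPM of libraries are given in the order of replicates 1 to 4. In tissue with mixed cells, fewer cells of a type and less RNA per cell cannot be told apart. Macrophage markers moved with the tissue too: of 12 markers, 9 were called higher in ileum in Δchat mice and 10 in WT mice, with median log2 fold changes of 1.35 in Δchat mice and 2.12 in WT mice. B cell markers moved the other way, with 7 of 7 log2 fold changes below 0 in both strains and medians of -1.10 in Δchat mice and -2.12 in WT mice. Of the 7 markers, 7 were called lower in ileum of WT mice and 0 in Δchat mice. The part of these cell types in the fold changes below was not tested.

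**Figure D2:**
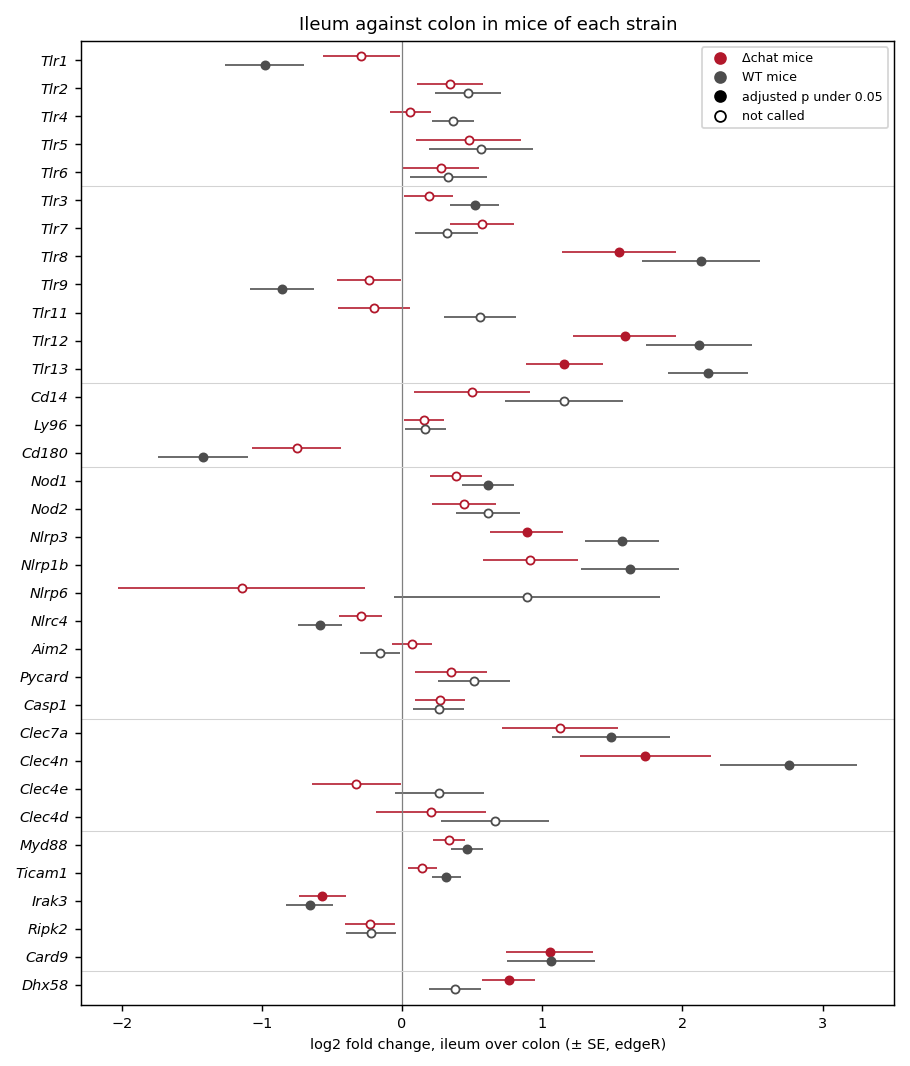
Log2 fold change of ileum over colon (edgeR, ± SE) for the 34 genes, grouped by role and separated by grey lines, in Δchat mice (red) and WT mice (grey), each with 4 mice. Filled points passed an adjusted p of 0.05; Clec4n, Tlr13, Tlr8 and Tlr12 lie farthest to the right in WT mice, and Cd180 and Tlr1 farthest to the left.

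Among the endosomal Toll-like receptors, 3 of 7 were higher in ileum of Δchat mice, and 4 were higher and 1 lower in ileum of WT mice. Tlr13 (ENSMUSG00000033777), the mouse receptor for bacterial ribosomal RNA, had 11.6, 29.04, 15.7 and 9.43 CPM in ileum Δchat libraries, 22.9, 20.3, 23.996 and 22.3 CPM in ileum WT libraries, 5.56, 8.77, 8.05 and 7.06 CPM in colon Δchat libraries, and 6.08, 4.99, 4.71 and 3.95 CPM in colon WT libraries. All 8 ileum libraries were above all 8 colon libraries, and replicate 2 was the highest of the ileum Δchat libraries. The log2 fold change was 1.16 ± 0.28 at an adjusted p of 0.0126 in Δchat mice and 2.18 ± 0.28 at an adjusted p of 0.000226 in WT mice, which is 2.23-fold and 4.53-fold. Tlr12 (ENSMUSG00000062545), which with Tlr11 recognizes profilin of protozoa in the mouse, had 32.8, 115, 45.7 and 26.8 CPM in ileum Δchat libraries, 38.5, 44.1, 45.5 and 55.2 CPM in ileum WT libraries, 14.5, 20.6, 16.9 and 21.2 CPM in colon Δchat libraries, and 8.32, 14.1, 11.4 and 8.18 CPM in colon WT libraries. Again no colon library reached the level of any ileum library. Its log2 fold change was 1.59 ± 0.37 at an adjusted p of 0.0113 in Δchat mice and 2.12 ± 0.38 at an adjusted p of 0.00173 in WT mice. Tlr8, a receptor for RNA degradation products, had 5.100, 17.5, 8.06 and 3.21 CPM in ileum Δchat libraries, 7.62, 6.85, 6.55 and 7.18 CPM in ileum WT libraries, 2.25, 3.99, 2.25 and 3.07 CPM in colon Δchat libraries, and 1.92, 1.75, 1.76 and 0.959 CPM in colon WT libraries. In WT mice the tissues did not overlap, whereas the lowest ileum Δchat library lay within the range of the colon Δchat libraries. Log2 fold changes of Tlr8 were 1.55 ± 0.41 at an adjusted p of 0.0204 in Δchat mice and 2.13 ± 0.42 at an adjusted p of 0.00306 in WT mice. Without Δchat mouse 3 the call of Tlr8 in Δchat mice was lost (adjusted p = 0.0759), while those of Tlr12 and Tlr13 were kept without any single mouse. Without Δchat mouse 2 the log2 fold change of Tlr12 in Δchat mice was 1.004.

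Tlr9, the receptor for unmethylated CpG DNA, went the other way. It had 21.6, 24.02, 15.1 and 24.2 CPM in ileum Δchat libraries, 14.2, 13.03, 19.5 and 15.5 CPM in ileum WT libraries, 31.1, 29.02, 17.9 and 22.03 CPM in colon Δchat libraries, and 39.6, 23.3, 20.4 and 29.8 CPM in colon WT libraries. In WT mice all 4 ileum libraries were below all 4 colon libraries. Its log2 fold change was -0.86 ± 0.23 at an adjusted p of 0.0131 in WT mice and -0.24 ± 0.23 at an adjusted p of 0.518 in Δchat mice, and the call in WT mice was lost without WT mouse 1 (adjusted p = 0.103) or WT mouse 4 (0.0707). Tlr3, the receptor for double-stranded RNA, had 15.6, 24.5, 25.4 and 17.1 CPM in ileum Δchat libraries, 19.9, 16.9, 16.1 and 19.5 CPM in ileum WT libraries, 17.5, 17.1, 18.1 and 19.9 CPM in colon Δchat libraries, and 11.1, 11.7, 17.1 and 10.6 CPM in colon WT libraries. Colon WT replicate 3 lay among the ileum WT libraries and the other 3 colon WT libraries lay below them. Tlr3 was higher in ileum of WT mice, with a log2 fold change of 0.52 ± 0.17 at an adjusted p of 0.0375, and not called in Δchat mice, with 0.19 ± 0.17 at an adjusted p of 0.495. That call was lost with the mouse as a block (adjusted p = 0.0693), and without WT mouse 1, 2 or 4 (adjusted p of 0.209, 0.113 and 0.187), and without WT mouse 3 the log2 fold change was 0.80. Of its transcript sequence, 6.100% of 31-base stretches also occur in the gene model Gm45542, so reads there could be split between them. Tlr7 and Tlr11 were not called between tissues in either strain. Tlr7, a receptor for single-stranded RNA, ranged from 8.21 to 18.8 CPM over the 16 libraries, and Tlr11 from 1.97 to 6.65 CPM. With the mouse as a block, Tlr11 was called in WT mice (adjusted p = 0.0478).

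**Figure D3:**
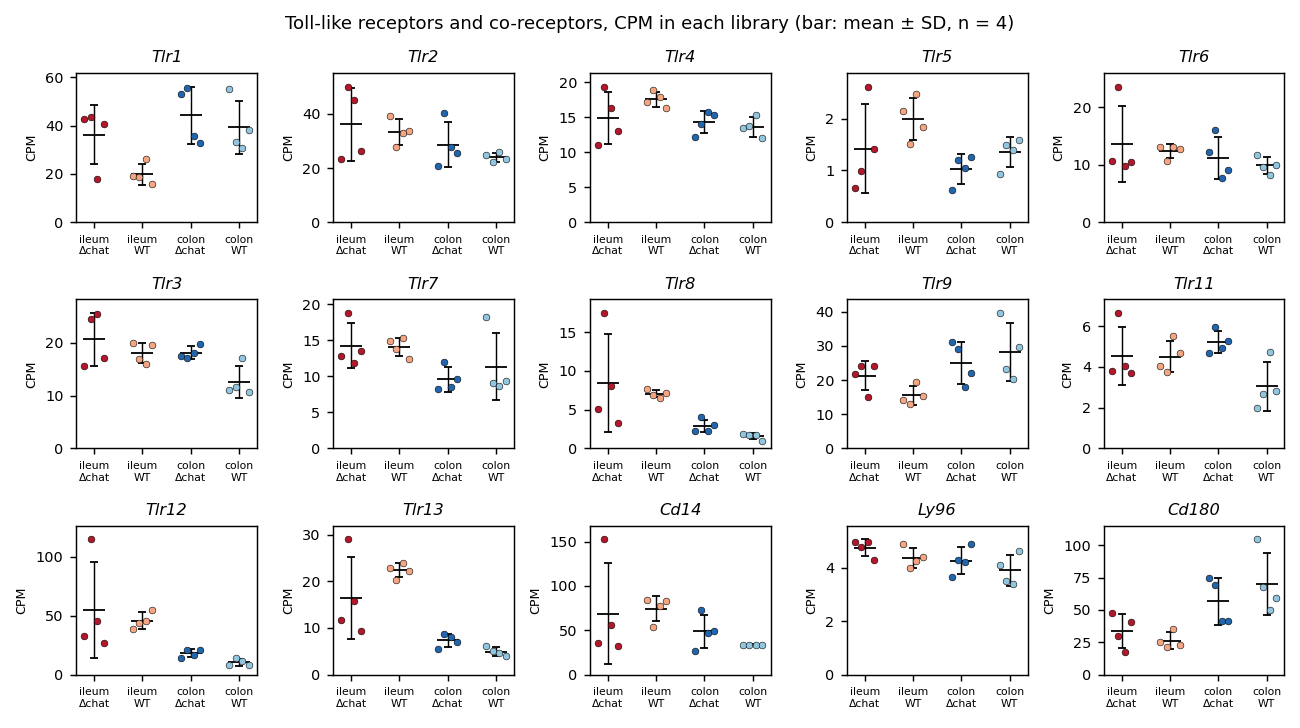
CPM of the 12 Toll-like receptors and the 3 genes grouped as co-receptors for lipopolysaccharide in each library (points, replicates 1 to 4 from left to right within a group), with the mean and SD of the 4 libraries (bars). Tlr12 and Tlr13 separate the 8 ileum libraries from the 8 colon libraries, and ileum Δchat replicate 2 is the highest point for Tlr12, Tlr13, Tlr8 and Cd14.

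Of the 5 surface Toll-like receptors, 1 was called between tissues, Tlr1 in WT mice, and it was lower in ileum. Tlr1, which pairs with Tlr2 to bind triacylated lipopeptides, had 42.6, 43.6, 18.04 and 40.5 CPM in ileum Δchat libraries, 19.1, 18.7, 25.97 and 15.7 CPM in ileum WT libraries, 53.2, 55.6, 35.5 and 32.7 CPM in colon Δchat libraries, and 55.1, 33.3, 30.7 and 38.1 CPM in colon WT libraries. In WT mice all ileum libraries were below all colon libraries, whereas 3 of the 4 ileum Δchat libraries lay within the range of the colon Δchat libraries and replicate 3 lay below it. For Tlr1 the log2 fold change was -0.29 ± 0.27 at an adjusted p of 0.509 in Δchat mice and -0.98 ± 0.28 at an adjusted p of 0.0184 in WT mice. The call in WT mice was lost without WT mouse 1 (adjusted p = 0.122), 2 (0.0537) or 4 (0.0926). Tlr1 and Tlr6 are near copies in part: 18.3% of the 31-base stretches of Tlr1 also occur in Tlr6, so their estimated counts are uncertain where reads were split. Tlr6, which pairs with Tlr2 to bind diacylated lipopeptides, had 10.6, 23.6, 9.86 and 10.5 CPM in ileum Δchat libraries, 13.2, 10.6, 13.1 and 12.8 CPM in ileum WT libraries, 12.2, 15.99, 7.76 and 9.02 CPM in colon Δchat libraries, and 11.8, 9.57, 8.27 and 9.93 CPM in colon WT libraries. Apart from ileum Δchat replicate 2, its libraries overlapped in all groups. Its log2 fold changes between tissues were 0.28 ± 0.27 at an adjusted p of 0.534 in Δchat mice and 0.33 ± 0.27 at an adjusted p of 0.393 in WT mice.

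Tlr2, the shared partner of Tlr1 and Tlr6, had 23.2, 50.1, 45.2 and 26.3 CPM in ileum Δchat libraries, 39.2, 27.6, 33.1 and 33.6 CPM in ileum WT libraries, 20.8, 40.3, 27.7 and 25.7 CPM in colon Δchat libraries, and 24.9, 22.2, 25.9 and 23.2 CPM in colon WT libraries. It was higher in ileum than in colon of each of the 8 mice, but its log2 fold changes were not called, with 0.34 ± 0.23 at an adjusted p of 0.361 in Δchat mice and 0.47 ± 0.24 at an adjusted p of 0.145 in WT mice. With the mouse as a block, it was called in WT mice (adjusted p = 0.02). Tlr4, the lipopolysaccharide receptor, had 10.99, 19.3, 16.2 and 12.99 CPM in ileum Δchat libraries, 17.1, 18.8, 17.9 and 16.3 CPM in ileum WT libraries, 12.2, 13.96, 15.7 and 15.3 CPM in colon Δchat libraries, and 13.4, 13.7, 15.4 and 11.96 CPM in colon WT libraries. Ileum WT libraries lay above colon WT libraries without overlap, whereas ileum Δchat libraries lay on both sides of the colon Δchat libraries. Tlr4 was not called in either strain, with a log2 fold change of 0.06 ± 0.15 at an adjusted p of 0.827 in Δchat mice and 0.36 ± 0.15 at an adjusted p of 0.0788 in WT mice. Tlr5 had 0.654, 0.981, 2.61 and 1.41 CPM in ileum Δchat libraries, 2.14, 1.52, 2.47 and 1.84 CPM in ileum WT libraries, 0.618, 1.196, 1.04 and 1.26 CPM in colon Δchat libraries, and 0.931, 1.48, 1.398 and 1.58 CPM in colon WT libraries. The groups overlapped, and log2 fold changes were 0.47 ± 0.38 at an adjusted p of 0.431 in Δchat mice and 0.56 ± 0.37 at an adjusted p of 0.277 in WT mice.

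The 3 genes grouped here as co-receptors for lipopolysaccharide did not move together. Cd180, a Toll-like receptor homologue of B cells and myeloid cells, had 47.9, 29.7, 17.1 and 40.4 CPM in ileum Δchat libraries, 25.1, 21.5, 35.5 and 23.1 CPM in ileum WT libraries, 74.9, 69.7, 41.2 and 41.3 CPM in colon Δchat libraries, and 105, 67.7, 50 and 58.96 CPM in colon WT libraries. It was lower in ileum than in colon of each of the 8 mice, and the tissues did not overlap in WT mice. For Cd180 the log2 fold change was -0.75 ± 0.32 at an adjusted p of 0.132 in Δchat mice and -1.42 ± 0.32 at an adjusted p of 0.00634 in WT mice, a 2.67-fold lower level in ileum. Without WT mouse 1 the adjusted p was 0.0536. Cd14 had 35.05, 153, 55.4 and 32.2 CPM in ileum Δchat libraries, 83.95, 53.5, 77.7 and 82.6 CPM in ileum WT libraries, 26.9, 72.8, 46.3 and 48.7 CPM in colon Δchat libraries, and 33.1, 33.8, 33.9 and 33.1 CPM in colon WT libraries. The 4 colon WT libraries were nearly equal and all below the ileum WT libraries, and ileum Δchat replicate 2 was far above the other 3 ileum Δchat libraries. Cd14 was not called, with a log2 fold change of 0.50 ± 0.42 at an adjusted p of 0.453 in Δchat mice and 1.15 ± 0.42 at an adjusted p of 0.0534 in WT mice. With the mouse as a block, it was called in WT mice (adjusted p = 0.0101). Ly96, the Tlr4 partner that holds lipopolysaccharide, had 4.97, 4.79, 4.97 and 4.29 CPM in ileum Δchat libraries, 4.88, 3.99, 4.26 and 4.395 CPM in ileum WT libraries, 3.66, 4.298, 4.21 and 4.89 CPM in colon Δchat libraries, and 4.11, 3.504, 3.39 and 4.63 CPM in colon WT libraries. Its groups overlapped, and its log2 fold changes were 0.16 ± 0.15 at an adjusted p of 0.503 in Δchat mice and 0.17 ± 0.15 at an adjusted p of 0.418 in WT mice.

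Among the NOD-like receptors and inflammasome genes, 1 of 9 was higher in ileum of Δchat mice, and 3 were higher and 1 lower in ileum of WT mice. Nlrp3 (ENSMUSG00000032691), the sensor of the inflammasome that responds to cell damage and many microbial products, had 73.7, 193, 119 and 75.9 CPM in ileum Δchat libraries, 137, 105, 156 and 154 CPM in ileum WT libraries, 49.5, 69.7, 57.004 and 73.1 CPM in colon Δchat libraries, and 37.3, 52.2, 50.1 and 46.4 CPM in colon WT libraries. The lowest ileum library was above the highest colon library, by a narrow margin. Its log2 fold change was 0.89 ± 0.26 at an adjusted p of 0.0351 in Δchat mice and 1.57 ± 0.26 at an adjusted p of 0.00118 in WT mice. In Δchat mice the call was lost without Δchat mouse 2 (log2 fold change 0.58, adjusted p = 0.127) or 3 (0.124), or without WT mouse 1 (0.0524), 3 (0.0594) or 4 (0.0583), which share the estimate of the spread. Nlrp1b, a sensor triggered by bacterial proteases in the mouse, had 8.04, 22.7, 10.7 and 6.26 CPM in ileum Δchat libraries, 9.05, 9.66, 8.61 and 10.2 CPM in ileum WT libraries, 4.59, 6.38, 8.26 and 6.05 CPM in colon Δchat libraries, and 1.86, 2.83, 3.19 and 4.23 CPM in colon WT libraries. In WT mice ileum was above colon without overlap, and ileum Δchat replicate 2 was the highest library. Its log2 fold change was 0.91 ± 0.34 at an adjusted p of 0.088 in Δchat mice and 1.63 ± 0.35 at an adjusted p of 0.00467 in WT mice. Nlrp1b shares 4.62% of its 31-base stretches with its paralog Nlrp1a.

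Nod1, a sensor of peptidoglycan fragments, had 66.7, 113, 114 and 73.3 CPM in ileum Δchat libraries, 83.1, 79.8, 81.05 and 98.03 CPM in ileum WT libraries, 60.5, 67.2, 67.4 and 86.3 CPM in colon Δchat libraries, and 45, 53.4, 70.9 and 54.1 CPM in colon WT libraries. All ileum WT libraries were above all colon WT libraries, and the Δchat libraries overlapped between tissues. It was higher in ileum of WT mice, with a log2 fold change of 0.61 ± 0.18 at an adjusted p of 0.0227, and not called in Δchat mice, with 0.38 ± 0.18 at an adjusted p of 0.18. The call in WT mice was lost without WT mouse 1, 2 or 4 (adjusted p of 0.12, 0.0764 and 0.123). Nlrc4, which with the Naip proteins detects flagellin and secretion systems, had 20.6, 20.8, 13.8 and 22.7 CPM in ileum Δchat libraries, 15.4, 12.1, 14.98 and 14.5 CPM in ileum WT libraries, 25.9, 26.3, 23.2 and 20.3 CPM in colon Δchat libraries, and 23.6, 18.4, 18.1 and 25.5 CPM in colon WT libraries. It was lower in ileum of WT mice without overlap, with a log2 fold change of -0.59 ± 0.16 at an adjusted p of 0.0141, and not called in Δchat mice, with -0.30 ± 0.16 at an adjusted p of 0.227. Without WT mouse 1 or 4 the adjusted p in WT mice was 0.0615 and 0.0935.

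Nlrp6, an inflammasome sensor known mainly from intestinal epithelium, had 8.697, 1.42, 5.91 and 12.04 CPM in ileum Δchat libraries, 5.48, 3.65, 1.97 and 1.001 CPM in ileum WT libraries, 2.74, 3.81, 51.3 and 4.18 CPM in colon Δchat libraries, and 1.04, 1.48, 2.64 and 1.24 CPM in colon WT libraries. Colon Δchat replicate 3, the library with 3258 CPM of epithelial markers, was far above every other library. The log2 fold change between tissues of Δchat mice was -1.14 ± 0.88 at an adjusted p of 0.416, and without Δchat mouse 3 it was 1.04 (adjusted p = 0.351). In WT mice it was 0.89 ± 0.95 at an adjusted p of 0.513. Casp1, the protease that inflammasomes activate, had 26.9, 32.6, 26.8 and 26.6 CPM in ileum Δchat libraries, 23.5, 28.9, 25.8 and 24.4 CPM in ileum WT libraries, 19.7, 21.7, 34.9 and 17.4 CPM in colon Δchat libraries, and 26.2, 21.5, 19.8 and 18.2 CPM in colon WT libraries. Its groups overlapped, and its log2 fold changes were 0.27 ± 0.18 at an adjusted p of 0.345 in Δchat mice and 0.26 ± 0.18 at an adjusted p of 0.301 in WT mice. The remaining 3 genes of this role were not called between tissues. Nod2, the muramyl dipeptide sensor, ranged from 15.3 to 51.7 CPM over the 16 libraries, the DNA sensor Aim2 from 27.7 to 44.0 CPM, and the inflammasome adaptor Pycard from 13.7 to 41.9 CPM. Pycard shares 12.7% of its 31-base stretches with other genes, mainly the gene model Gm45205.

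Of the 4 C-type lectin receptors, 1 was higher in ileum of Δchat mice and 2 in ileum of WT mice. Clec4n (ENSMUSG00000023349), a receptor for fungal mannans, had 18.4, 55.3, 24.6 and 10.7 CPM in ileum Δchat libraries, 31.02, 19.8, 33.4 and 44.5 CPM in ileum WT libraries, 4.01, 14.9, 5.09 and 8.77 CPM in colon Δchat libraries, and 4.93, 5.12, 4.51 and 4.46 CPM in colon WT libraries. The colon WT libraries lay close together and far below the ileum WT libraries. It had the largest fold change of the 34 genes in WT mice, with a log2 fold change of 2.76 ± 0.49 at an adjusted p of 0.00173, or 6.76-fold, and was also called in Δchat mice, with 1.73 ± 0.47 at an adjusted p of 0.0246. In Δchat mice the call was lost without Δchat mouse 1 (adjusted p = 0.0622) or 3 (0.0912). Clec7a had 74.9, 313, 107 and 67.7 CPM in ileum Δchat libraries, 124, 114, 126 and 159.6 CPM in ileum WT libraries, 41.3, 104, 57.1 and 54.6 CPM in colon Δchat libraries, and 39.5, 53.1, 44.9 and 48.7 CPM in colon WT libraries. It was higher in ileum of each of the 8 mice, and ileum Δchat replicate 2 was well above the other 3 libraries of its group. The log2 fold change was 1.13 ± 0.42 at an adjusted p of 0.0887 in Δchat mice and 1.49 ± 0.42 at an adjusted p of 0.0179 in WT mice. With the mouse as a block, Clec7a was called in Δchat mice as well (adjusted p = 0.0152), and without WT mouse 1, 3 or 4 it was not called in WT mice (adjusted p of 0.0852, 0.0517 and 0.081). Clec4e, a receptor for mycobacterial and fungal glycolipids, had 3.596, 5.01, 4.24 and 4.24 CPM in ileum Δchat libraries, 7.74, 3.65, 7.22 and 3.67 CPM in ileum WT libraries, 4.103, 4.61, 5.34 and 7.41 CPM in colon Δchat libraries, and 7.72, 3.14, 4.15 and 3.55 CPM in colon WT libraries. Clec4d, its close relative and partner, had 2.03, 2.23, 1.97 and 1.200 CPM in ileum Δchat libraries, 5.54, 2.42, 3.59 and 2.67 CPM in ileum WT libraries, 0.618, 1.77, 1.42 and 2.62 CPM in colon Δchat libraries, and 3.34, 1.71, 1.92 and 2.03 CPM in colon WT libraries. Both overlapped between tissues in both strains. Neither was called, with log2 fold changes of -0.33 ± 0.32 for Clec4e and 0.21 ± 0.39 for Clec4d in Δchat mice, and 0.27 ± 0.32 and 0.66 ± 0.39 in WT mice.

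Among the adaptors and regulators, 1 of 5 was higher and 1 lower in ileum of Δchat mice, and 3 were higher and 1 lower in ileum of WT mice. Irak3, an inhibitor of Toll-like receptor signalling, had 37.01, 36.1, 26.4 and 32.1 CPM in ileum Δchat libraries, 35.5, 30.2, 34.1 and 30.7 CPM in ileum WT libraries, 53.6, 57.3, 33.5 and 50.7 CPM in colon Δchat libraries, and 57.1, 43.4, 42.6 and 63.2 CPM in colon WT libraries. It was lower in ileum than in colon of each of the 8 mice. For Irak3 the log2 fold change was -0.57 ± 0.17 at an adjusted p of 0.0368 in Δchat mice and -0.66 ± 0.17 at an adjusted p of 0.011 in WT mice. The call was lost in Δchat mice without Δchat mouse 1, 2 or 4 (adjusted p of 0.0858, 0.126 and 0.112), and in WT mice without WT mouse 1 or 4 (0.0518 and 0.0876). Card9, the adaptor of the C-type lectin receptors, had 6.54, 14.8, 6.77 and 4.67 CPM in ileum Δchat libraries, 8.63, 5.73, 7.18 and 9.51 CPM in ileum WT libraries, 2.69, 4.43, 3.67 and 4.99 CPM in colon Δchat libraries, and 3.94, 3.59, 2.92 and 4.46 CPM in colon WT libraries. Ileum was above colon without overlap in WT mice, and overlapped with it in Δchat mice. The log2 fold change was 1.05 ± 0.31 at an adjusted p of 0.0364 in Δchat mice and 1.06 ± 0.31 at an adjusted p of 0.0213 in WT mice. In Δchat mice the call of Card9 was lost with the mouse as a block (adjusted p = 0.0536) and without any 1 of the mice other than Δchat mouse 4 (adjusted p between 0.0517 and 0.158), and in WT mice without WT mouse 1, 3 or 4 (0.0939, 0.0657 and 0.0735). Without Δchat mouse 2 the log2 fold change of Card9 in Δchat mice was 0.66.

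Myd88, the adaptor of nearly all Toll-like receptors, had 70.9, 103, 96.6 and 76.7 CPM in ileum Δchat libraries, 79.8, 74.6, 82.2 and 90.7 CPM in ileum WT libraries, 63.6, 66.9, 65.5 and 78.98 CPM in colon Δchat libraries, and 59.2, 58.3, 63.7 and 55.9 CPM in colon WT libraries. It was higher in ileum of WT mice without overlap, with a log2 fold change of 0.47 ± 0.11 at an adjusted p of 0.00851, and not called in Δchat mice, with 0.34 ± 0.11 at an adjusted p of 0.063. Without WT mouse 4 the adjusted p in WT mice was 0.0658. Of its 31-base stretches, 8.93% also occur in Acaa1a, an overlapping neighbour, and the libraries do not mark strand. Ticam1, the adaptor of Tlr3 and Tlr4, had 29.8, 28.5, 26.4 and 25.2 CPM in ileum Δchat libraries, 27.8, 31.2, 27.001 and 32.4 CPM in ileum WT libraries, 21.4, 25.96, 27.7 and 24.2 CPM in colon Δchat libraries, and 20.1, 22.7, 26.04 and 26.2 CPM in colon WT libraries. All ileum WT libraries were above all colon WT libraries. The call in WT mice, with a log2 fold change of 0.32 ± 0.11 at an adjusted p of 0.0368, was lost with the mouse as a block (adjusted p = 0.06) and without WT mouse 1, 2 or 4 (adjusted p of 0.13, 0.158 and 0.0766). Ripk2, the kinase below Nod1 and Nod2, was not called and ranged from 23.7 to 41.3 CPM over the 16 libraries. Dhx58, a regulator of the RNA helicase sensors and the only RIG-I-like receptor among the 34, had 16.7, 17.3, 18.8 and 13.1 CPM in ileum Δchat libraries, 16.97, 12.6, 17.8 and 14.4 CPM in ileum WT libraries, 8.82, 9.35, 10.4 and 10.3 CPM in colon Δchat libraries, and 16.8, 8.04, 12.2 and 10.6 CPM in colon WT libraries. It was higher in ileum of Δchat mice without overlap, with a log2 fold change of 0.76 ± 0.19 at an adjusted p of 0.0152, and not called in WT mice, with 0.38 ± 0.19 at an adjusted p of 0.145, where the tissues overlapped. The call in Δchat mice was lost without Δchat mouse 1, 2 or 3 (adjusted p of 0.0706, 0.0799 and 0.0574). It shares 3.49% of its 31-base stretches with the antisense gene Dhx58os.

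**Figure D4:**
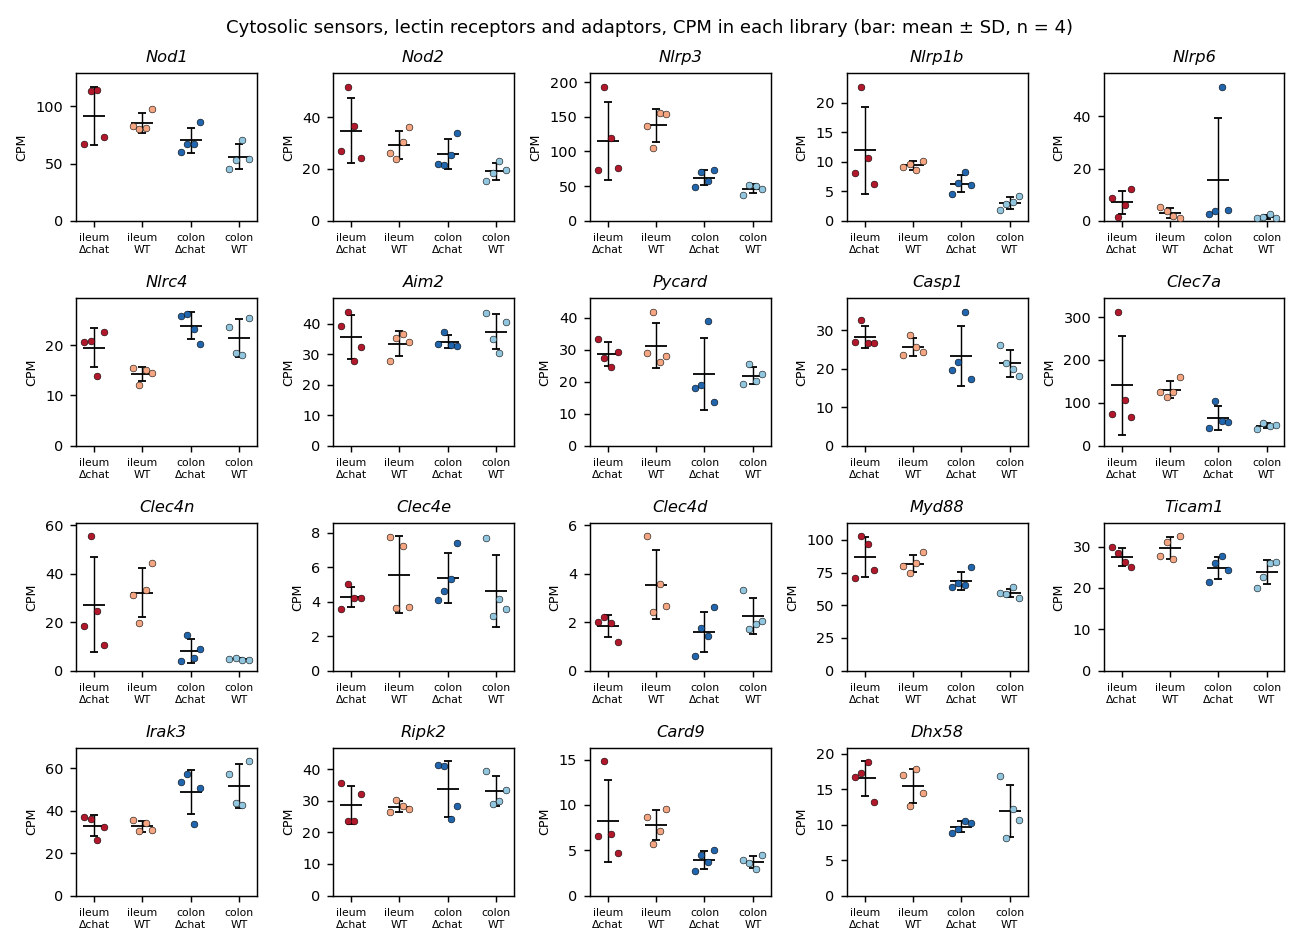
CPM of the 9 NOD-like receptors and inflammasome genes, 4 C-type lectin receptors, 5 adaptors and regulators and Dhx58 in each library (points, replicates 1 to 4 from left to right within a group), with the mean and SD of the 4 libraries (bars, which for Nlrp6 in colon Δchat run below the axis). Nlrp3 separates ileum from colon in all libraries, and Nlrp6 reaches 51.3 CPM in colon Δchat replicate 3.

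Counted by library, the levels of 4 genes did not overlap between ileum and colon of Δchat mice (Tlr12, Tlr13, Nlrp3 and Dhx58, all higher in ileum), where 9.38% of all genes tested were higher without overlap. In WT mice 16 genes were higher without overlap, against 16.3% of all genes, and 5 were lower without overlap, against 18.6%. Taking both strains, Tlr12, Tlr13 and Nlrp3 were higher in all 8 ileum libraries than in all 8 colon libraries, against 4.36% of all genes, and none was lower in all 8, against 2.16%. Libraries with the same strain and number were taken as the same mouse. Within the 8 mice, 9 genes were higher in ileum in every mouse (Tlr2, Tlr8, Tlr12, Tlr13, Nlrp3, Nlrp1b, Clec7a, Clec4n and Dhx58), against 11% of all genes. Lower in ileum in every mouse were 2 genes (Cd180 and Irak3), against 9.67% of all genes.

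Without Δchat mouse 2, whose ileum library had the most macrophage markers, 5 genes were called higher and 0 lower in ileum of Δchat mice, against 5% and 2.49% of all genes. Of the genes called with all mice, Tlr8, Tlr12, Tlr13 and Clec4n were called again, Nlrp3, Card9, Dhx58 and Irak3 were not, and Clec7a was added. At an unadjusted p under 0.05, 9 genes were higher and 1 lower without that mouse, against 11.4% and 10.1% of all genes. The log2 fold change of Cd14 was then 0.01 and that of Nlrp1b 0.40, neither called.

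Between the strains no gene of the 34 was called in either tissue. In data simulated with log2 fold changes of 1 up or down, the test called 62% of such genes in ileum and 46.5% in colon. A difference of that size can thus be missed. In ileum, edgeR called 0 of the 34 as differing between Δchat and WT mice, against 0.0207% of all 14496 genes tested, and in colon 0 of 34, against 0.00682% of all 14660 genes tested. At an unadjusted p under 0.05, 3 of the 34 were higher and 1 lower in ileum with Δchat B. breve, against 4.81% and 6.1% of all genes, and 10 were higher and none lower in colon, against 7.99% and 5.31% of all genes. Limma-voom with quality weights called 0 of the 34 in both tissues, where it called 164 of all genes in ileum and 1 in colon. DESeq2 called 0 of the 34 in ileum and 2 in colon, Nlrp1b and Tlr12, where it called 375 and 308 of all genes. The median log2 fold change of Δchat over WT was 0.07 in ileum, where all genes had 0.01, and 0.19 in colon, where all genes had 0.01. In colon 26 of the 34 log2 fold changes (76.5%) were above 0, against 51% of those of all genes. In ileum 21 of the 34 (61.8%) were above 0, against 53.2% of those of all genes.

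**Figure D5:**
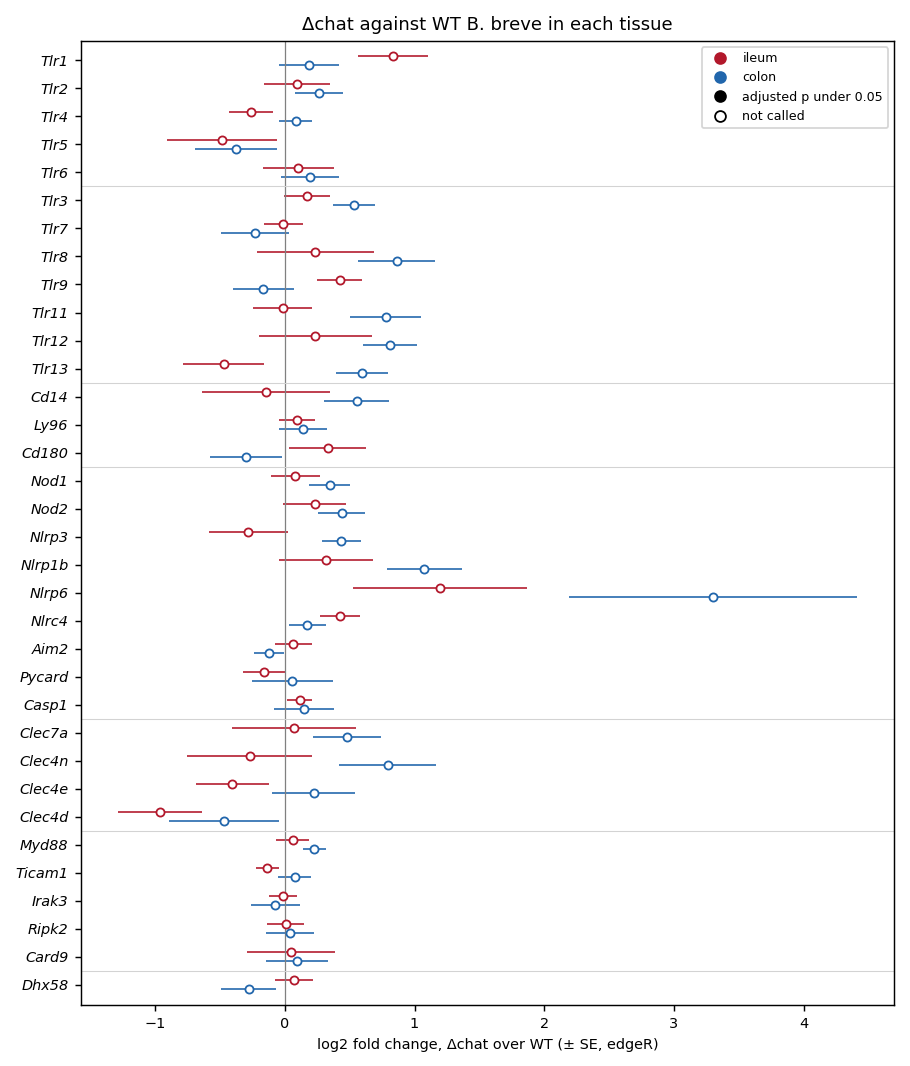
Log2 fold change of Δchat over WT (edgeR, ± SE) for the 34 genes, grouped by role and separated by grey lines, in ileum (red) and colon (blue), each with 4 against 4 mice. All points are open, since none passed an adjusted p of 0.05; 26 of the 34 colon values lie to the right of 0.

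The 10 genes with an unadjusted p under 0.05 in colon were Tlr3, Tlr8, Tlr11, Tlr12, Tlr13, Nod2, Nlrp1b, Nlrp3, Nlrp6 and Myd88, of which 5 are endosomal Toll-like receptors. Tlr12 averaged 18.3 ± 3.203 CPM in colon Δchat libraries and 10.5 ± 2.85 CPM in colon WT libraries (SD, n = 4 each), with a log2 fold change of 0.81 ± 0.21 at an unadjusted p of 0.00369 and an adjusted p of 0.291. Nlrp1b averaged 6.32 ± 1.51 CPM in colon Δchat libraries and 3.03 ± 0.979 CPM in colon WT libraries (SD, n = 4 each), with a log2 fold change of 1.08 ± 0.29 at an unadjusted p of 0.00473 and an adjusted p of 0.301. For both genes the lowest Δchat library lay just above the highest WT library. Tlr3 had a log2 fold change of 0.54 ± 0.16 at an unadjusted p of 0.0096 and an adjusted p of 0.313, and Tlr8 one of 0.86 ± 0.30 at an unadjusted p of 0.0182 and an adjusted p of 0.327, again without overlap between the groups, though for Tlr3 the nearest libraries were equal to 3 digits. Tlr13, Nlrp3 and Myd88 had log2 fold changes of 0.59 ± 0.20, 0.43 ± 0.15 and 0.23 ± 0.09, and their groups overlapped. Nlrp6 had 3.30 ± 1.11, and without colon Δchat replicate 3 it had 1.14 (unadjusted p = 0.011 and adjusted p = 0.288). In all, the colon levels of 5 of the 34 were higher with Δchat without overlap (Tlr3, Tlr8, Tlr12, Nlrp1b and Nlrp6), against 3.65% of all genes, and none lower, against 3.57%. Without colon Δchat replicate 3, 10 of the 34 were higher and 1 lower at an unadjusted p under 0.05, against 6.44% and 5.71% of all genes, and 0 were called.

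Some lists of cell type markers lay on one side of 0 between the strains in colon, and no marker was called. All 12 macrophage markers and all 10 epithelial markers had log2 fold changes above 0, with medians of 0.76 and 3.12, and the epithelial median was 1.09 without colon Δchat replicate 3. In contrast, all 7 B cell and all 7 plasma cell markers had log2 fold changes below 0, with medians of -0.54 and -1.03. The other lists held markers on both sides of 0. Macrophage markers summed to 976 to 1681 CPM in colon Δchat libraries and 919.7 to 1119 CPM in colon WT libraries, and plasma cell markers to 23375 to 32749 CPM and 44694 to 86591 CPM. The part of these cell types in the colon values of the recognition genes was not tested.

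In ileum, Tlr1 had the smallest p of the 34. Its level was 36.2 ± 12.2 CPM in ileum Δchat libraries and 19.9 ± 4.34 CPM in ileum WT libraries (SD, n = 4 each), with a log2 fold change of 0.83 ± 0.27 at an unadjusted p of 0.0142 and an adjusted p of 0.322. In 3 of the 4 Δchat libraries it was above all WT libraries, and replicate 3 lay among them. Without that library Tlr1 was called (log2 fold change 1.05, adjusted p = 0.0274). The calls among all genes then rose from 3 to 247, of which 33 were higher and 214 lower with Δchat. Clec4d was lower with Δchat without overlap, and no other gene of the 34 was, against 3.38% of all genes, and none was higher without overlap, against 3.74%. It averaged 1.86 ± 0.453 CPM in ileum Δchat libraries and 3.55 ± 1.42 CPM in ileum WT libraries (SD, n = 4 each), with a log2 fold change of -0.96 ± 0.32 at an unadjusted p of 0.0161 and an adjusted p of 0.327. Nlrc4 and Tlr9 had log2 fold changes of 0.42 ± 0.15 at an unadjusted p of 0.0228 and an adjusted p of 0.364, and 0.42 ± 0.17 at an unadjusted p of 0.0368 and an adjusted p of 0.423. None of these passed the adjustment. B cell markers had log2 fold changes above 0 for all 7 markers in ileum, with a median of 0.53, and were split between the Δchat libraries as given above. Macrophage markers had 11 of 12 above 0, with a median of 0.24, and epithelial markers 10 of 10, with a median of 0.78. Other lists lay lower with Δchat: neutrophil markers had 5 of 6 below 0, with a median of -1.35, monocyte markers 5 of 7, with a median of -0.54, mast cell markers 5 of 5 and plasma cell markers 7 of 7, with a median of -0.54. Stroma markers had 6 of 9 below 0, with a median of -0.998, and eosinophil markers 4 of 4, with a median of -0.47. T cell markers had 7 of 8 below 0, with a median of -0.18, and dendritic cell markers 5 of 8, with a median of -0.20. Summed neutrophil markers did not overlap between the groups, at 39.7 to 86.3 CPM in ileum Δchat libraries and 105 to 165 CPM in ileum WT libraries. Neither did those of monocytes, at 442 to 550.4 CPM in ileum Δchat libraries and 605 to 776 CPM in ileum WT libraries, and of mast cells, at 81.5 to 115 CPM in ileum Δchat libraries and 131 to 155 CPM in ileum WT libraries. Their part in these values was not tested.

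The ileum values rested in part on ileum Δchat replicate 2, the library with the highest macrophage markers. Without it, 3 of the 34 were higher and 8 lower with Δchat at an unadjusted p under 0.05, against 4.897% and 7.41% of all genes, and the median log2 fold change was -0.14, against 0.01 for all genes. Still 0 of the 34 were called. Without that library 1 of the 12 macrophage markers was above 0, with a median of -0.32.

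Whether the strain effect differed from one tissue to the other was tested directly in 1 fit of 16 libraries. EdgeR called 0 of the 34, against 0.0592% of all 15198 genes, and so did DESeq2 and limma-voom, and 1 of the 34 had an unadjusted p under 0.05, against 7.72% of all genes. That gene was Tlr13, whose strain effect was lower in ileum than in colon, with a difference in log2 fold change of -1.02 ± 0.39 at an unadjusted p of 0.0189 and an adjusted p of 0.613. Its strain log2 fold changes were -0.47 ± 0.31 in ileum and 0.59 ± 0.20 in colon, each from the fit of that tissue. With the mouse as a block, edgeR gave Tlr13, Tlr11, Cd14 and Nlrp3 unadjusted p of 0.00266, 0.0126, 0.0278 and 0.0355. All of them had a lower strain effect in ileum, and 0 of the 34 were called. The share of all genes under 0.05 was not counted in that fit. Of the 34 differences, 9 (26.5%) were above 0, against 52.9% of those of all genes. Their median was -0.17, against 0.02 for all genes. Without Δchat mouse 2, 10 of the 34 had an unadjusted p under 0.05, all with a lower strain effect in ileum, against 6.12% of all genes, and 0 were called. Without Δchat mouse 3, 1 was higher and 1 lower at that threshold, against 3.88% and 5.80% of all genes. With all mice, the differences of 1 of 12 macrophage, 7 of 7 B cell and 0 of 10 epithelial markers were above 0. Their medians were -0.46, 1.03 and -2.50. Without Δchat mouse 2, 0 of 12 macrophage markers were above 0, with a median of -0.84. The part of these cell types in the differences was not tested. The same mice give the differences in this test and the tissue comparisons above, so these are not independent.

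Other genes of the same pathways were listed by name, 77 symbols of chaperones, kinases, regulators, transcription factors, further sensors and effectors, of which 75 were in the table. Between the strains edgeR called none of the 72 tested in either tissue. At an unadjusted p under 0.05, 3 were higher and 7 lower in ileum, against 4.81% and 6.1% of all genes, and 13 were higher and 7 lower in colon, against 7.99% and 5.31%. As shares of the list these are 4.17% and 9.72% in ileum and 18.1% and 9.72% in colon, with median log2 fold changes of 0.01 in ileum and -0.02 in colon. In ileum the smallest p belonged to Il6, an inflammatory cytokine, with a log2 fold change of -1.35 ± 0.27 at an unadjusted p of 0.000882 and an adjusted p of 0.173. It was followed by the chaperone of Toll-like receptors Hsp90b1, at -0.42 ± 0.10, and the endosomal transporter Slc15a4, at 0.40 ± 0.10. In colon the smallest p belonged to Mrc1, the mannose receptor of macrophages, at 0.86 ± 0.21 at an unadjusted p of 0.00291 and an adjusted p of 0.279. Casp4, the sensor of cytosolic lipopolysaccharide, had -0.40 ± 0.11, and the cytokine Tnf had 0.70 ± 0.20.

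Between the tissues, 16 of 73 pathway genes (21.9%) were higher and 1 lower in ileum of Δchat mice, where 8.31% and 5.03% of all genes were. In ileum of WT mice 27 were higher and 11 lower, against 13.7% and 15.1% of all genes, so that the share lower, 15.1%, was that of all genes. In all, 16 were called in both strains, a count that was not made over all genes. The median log2 fold change of the list was 0.12 in Δchat mice and 0.26 in WT mice, beside the -0.02 and -0.04 of all genes. Other sensors gave the most calls, with 7 of 18 higher in Δchat mice and 11 of 18 in WT mice. Nlrp1a, a paralog of Nlrp1b, had log2 fold changes of 1.98 ± 0.31 in Δchat mice and 2.43 ± 0.32 in WT mice. Clec4a2, an inhibitory lectin receptor of myeloid cells, had 1.79 ± 0.36 and 2.14 ± 0.37 in Δchat and WT mice, and Mrc1 had 1.58 ± 0.39 and 2.28 ± 0.40. The nucleic acid sensors Zbp1, Ddx58 and Cgas were higher in ileum of Δchat mice, at 1.44 ± 0.13, 0.67 ± 0.10 and 0.91 ± 0.19, and the first 2 of them in WT mice too, at 0.94 ± 0.13 and 0.45 ± 0.10. Fcer1g, the signalling chain of Clec4n, had 1.43 ± 0.28 in Δchat mice and 1.66 ± 0.29 in WT mice.

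Effectors and regulators were also called. The cytokine genes Il1b and Tnf were higher in ileum, with log2 fold changes of 1.19 ± 0.30 and 1.62 ± 0.35 in Δchat mice and 1.56 ± 0.31 and 1.32 ± 0.35 in WT mice. Il12b was lower in ileum, at -1.29 ± 0.34 in Δchat mice and -1.24 ± 0.34 in WT mice. The inhibitory cytokine Il10 was called in WT mice, at 2.01 ± 0.32. The inhibitors of NF-kB signalling Nfkbia and Tnfaip3 were higher in ileum, at 0.72 ± 0.11 and 0.56 ± 0.16 in Δchat mice and 0.77 ± 0.11 and 0.98 ± 0.17 in WT mice. Irf7, a transcription factor of the interferon response, had 0.996 ± 0.12 in Δchat mice and 0.88 ± 0.12 in WT mice. Of the 22 adaptors and kinases, 2 were higher in ileum of WT mice, Fcer1g and Ikbke, and 6 were lower, where 15.1% of all genes were. The 6 were Syk, Malt1, Ikbkb, Ikbkg, Map3k7 and Tab3, with log2 fold changes from -0.83 for Syk to -0.29 for Tab3. The transcription factor Rel was lower in the same mice, at -1.03 ± 0.24. Cd209a, a lectin receptor called higher in ileum of WT mice at 1.51 ± 0.27, also stands in the list of dendritic cell markers. Of the remaining genes called, Casp4, the pyrin gene Mefv, the endosomal transporter Slc15a3 and Hsp90b1 were higher in ileum of both strains, at 0.73 ± 0.14, 1.06 ± 0.23, 1.05 ± 0.26 and 0.42 ± 0.12 in Δchat mice and 0.68 ± 0.14, 1.08 ± 0.23, 1.33 ± 0.26 and 0.37 ± 0.12 in WT mice. In WT mice the partners of Nlrc4, Naip2, Naip5 and Naip6, were higher in ileum at 0.77 ± 0.26, 0.84 ± 0.22 and 0.97 ± 0.30, where Nlrc4 itself was lower. The Naip genes are close paralogs, so reads may be split among them. Also higher in ileum of WT mice were the RNA sensor Ifih1 at 0.83 ± 0.22, the kinase Ikbke at 0.64 ± 0.16, the scavenger receptor Cd36 at 0.76 ± 0.21, Il6 at 1.08 ± 0.23, the NF-kB subunit Rela at 0.34 ± 0.07, and the inhibitors Nlrp12 at 1.84 ± 0.53 and Sigirr at 0.26 ± 0.09. Lower there were Nlrp10 at -1.04 ± 0.33, Slc15a4 at -0.41 ± 0.13 and the transcription factor Irf3 at -0.28 ± 0.08.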

How the data were processed

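RNA was selected on poly-T beads, and second-strand synthesis used dTTP, so reads do not mark strand, per the labels' protocols. Reads were trimmed with cutadapt 5.0 and quantified with Salmon 1.4.0 on GRCm39, per the submitters' processing notes, and the annotation is not given in the sources used here. The authors deposited 1 table of estimated counts per gene for the 16 libraries, 15940467 to 23612561 in total each, which were rounded to whole numbers. Of 35647 identifiers, 35105 have a symbol.

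Tests were edgeR 4.0.16 quasi-likelihood tests in R 4.3.3, with filterByExpr, TMM factors and Benjamini-Hochberg adjustment over all genes tested: the strains within each tissue in fits of 8 libraries, and the tissues within each strain and the difference of the strain effect in 1 fit of 16. The code was tested on simulated data. There the test for the difference of the strain effect called 42% of genes simulated with a log2 fold change of 1 up or down. Alternatives were RLE factors, no filter, at least 1 CPM in 4 libraries, DESeq2 1.42.0, limma-voom 3.58.1 with quality weights, 1 fit for all groups, a replicate block and each library or mouse left out. Printed CPM are scaled by TMM factors over the 16 libraries, and fold changes come from the fits. Ileum and colon libraries of 1 strain and number were taken as 1 mouse, since library names pair them. The correlations of their deviations from group means were 0.22, 0.27, 0.19 and -0.18 for Δchat mice and -0.06, 0.07, -0.05 and -0.04 for WT mice. Members and lists were chosen with earlier results of these data known. Genes given by library were those called in any comparison and up to 3 of each role with the smallest unadjusted p in each strain comparison, and the others are given as ranges. Pathway genes are named where called, with up to 3 of the smallest p in each strain comparison. Promoters and gene models came from RefSeq GRCm38.p6 and GENCODE on GRCm38, an older build than that of the counts, so shared stretches and levels per kb are approximate.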

Additional observations from a re-analysis of the deposited data

Results flagged for a closer look

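In each group of 4 libraries the highest and lowest values of each of the 34 genes were compared with the rest of the group. Of 136 such groups, 10 held a library far from the other 3, its gap to the nearest library taking most of the group's range (Dixon's test), which chance gives in about 1 in 20 groups. The explanations of these values were not tested.

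In ileum Δchat, replicate 2 was the library apart for 4 genes. Clec7a had 312.7 CPM there, against 67.7 to 106.5 CPM in the other 3 libraries. Tlr6 had 23.6 CPM, against 9.86 to 10.6 CPM. Casp1 had 32.6 CPM, against 26.6 to 26.9 CPM, and Tlr11 had 6.65 CPM, against 3.69 to 4.03 CPM. Replicate 3 of the same group was apart for Tlr1, with 18.04 CPM against 40.5 to 43.6 CPM. Replicate 2 held 5663 CPM of macrophage markers. Replicate 3 held the least B cell markers of its group, at 318 CPM, close to the 349 CPM of replicate 2. It also held the most stroma markers, at 7502 CPM, against 2063 to 3192 CPM in the other 3 libraries.

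In ileum WT, Tlr6 was lowest in replicate 2, with 10.6 CPM against 12.8 to 13.2 CPM. In colon Δchat, Nlrp6 had 51.3 CPM in replicate 3, the library with 3258 CPM of epithelial markers, against 2.74 to 4.18 CPM in the other 3 libraries. Aim2 had 37.2 CPM in colon Δchat replicate 2, against 32.8 to 33.5 CPM. In colon WT, Tlr3 had 17.1 CPM in replicate 3, against 10.6 to 11.7 CPM, and Tlr7 had 18.3 CPM in replicate 1, against 8.63 to 9.37 CPM.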

How the results depend on the processing

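In WT mice the calls of Clec4n, Nlrp1b, Nlrp3, Tlr8, Tlr12 and Tlr13, and in Δchat mice that of Tlr12, held under all 14 alternatives for the tissue comparisons. For the genes chosen by their p in the strain comparisons and those called in the tissue comparisons, 843 values kept direction and side of the threshold, 58 lost the call, 3 gained one and 16 changed sign. Of the members not called between tissues, Casp1, Clec7a, Myd88, Nod2, Pycard and Tlr7 in Δchat mice and Cd14, Dhx58, Nod2, Pycard, Tlr2, Tlr4, Tlr7 and Tlr11 in WT mice were called under at least 1 alternative. Of all genes in ileum between strains, 3 were called, against 0 with RLE factors, 5 without the filter, 0 with the filter of 1 CPM, 375 with DESeq2, 164 with limma-voom, 42 in 1 fit of 16 libraries, 0 with the replicate block and 0 to 247 without single libraries. In colon 1 was called, against 308 with DESeq2 (2 of the 34), 10 in 1 fit, 0 with the replicate block and 0 to 3 without single libraries. For the difference of the strain effect 9 were called, against 58 with DESeq2, 3 with the mouse as replicate block and 0 to 18 without single mice. Between tissues of Δchat mice 2028 of all genes and 8 of the 34 were called, against 5 of the 34 with limma-voom, and 1149 to 1838 of all and 4 to 9 of the 34 without single mice. In WT mice 4380 of all and 17 of the 34 were called, against 1719 to 4950 of all and 7 to 19 of the 34 without single mice. Without single libraries 0 to 1 of the 34 were called in ileum between strains. Limma-voom lost the Δchat tissue calls of Card9, Clec4n, Nlrp3, Tlr8 and Tlr13 (adjusted p of 0.143, 0.159, 0.147, 0.213 and 0.0512), and no filter lost Nlrp3 there (0.0508) and Tlr3 and Ticam1 in WT mice (0.0503 and 0.0514).

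Signs changed for some log2 fold changes between strains, none of them called. Without single libraries the values were -0.037 to 0.24 for Card9 and -0.024 to 0.33 for Tlr6 in colon, and -0.39 to 0.24 for Card9, -0.87 to 0.091 for Cd14, -0.013 to 0.17 for Dhx58 and -0.020 to 0.15 for Myd88 in ileum. With limma-voom the ileum values were -0.40 for Card9, -0.10 for Dhx58, -0.081 for Myd88 and -0.016 for Tlr3, and with the replicate block -0.066 for Card9. The causes were not tested. Replicate numbers were not used to pair the strains, since the library names of WT mice carry other numbers than their replicates. Same-numbered Δchat and WT libraries had correlations of deviations from -0.27 to 0.01 in ileum and from -0.10 to 0.34 in colon. Libraries taken as the same mouse had -0.18 to 0.27, a range that overlaps these, so the correlations cannot decide a pairing. The block on the mouse changed no other call of the 34 than those given beside the genes. Genes of a few CPM, such as Tlr5 and Clec4d, have the largest counting error.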

Other observations

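Within ileum Δchat, replicate 2 held the highest value of the group for 21 of the 34 genes (61.8%), where it held the highest value for 28.0% of all genes tested. In ileum WT, replicate 2 held the lowest value for 21 of the 34 and for 30.4% of all genes, and in colon Δchat, replicate 1 held the lowest for 22 of the 34 and for 23.7% of all genes.

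Markers of the other listed cell types gave the following calls between ileum and colon. Plasma cells had 7 higher and 0 lower in Δchat mice and 6 higher and 0 lower in WT mice, of 7 markers. T cells had 6 higher and 0 lower in Δchat mice and 6 higher and 0 lower in WT mice, of 8. Monocytes had 0 higher and 3 lower in Δchat mice and 1 higher and 4 lower in WT mice, of 7. Neutrophils had 2 higher and 0 lower in Δchat mice and 3 higher and 0 lower in WT mice, of 6 tested. Dendritic cells had 0 higher and 1 lower in Δchat mice and 3 higher and 1 lower in WT mice, of 8. Eosinophils had 1 higher and 0 lower in Δchat mice and 3 higher and 0 lower in WT mice, of 4 tested, and mast cells had 1 higher and 1 lower in Δchat mice and 4 higher and 1 lower in WT mice, of 6. Epithelium had 0 higher and 1 lower in Δchat mice and 0 higher and 0 lower in WT mice, of 10, and stroma had 0 higher and 1 lower in Δchat mice and 1 higher and 0 lower in WT mice, of 9. Between the strains no marker of any list was called in ileum or colon. In the test of whether the strain effect differed between the tissues, the neutrophil markers Mmp9 and Retnlg were called, with a lower strain effect in ileum, by -1.95 ± 0.32 at an adjusted p of 0.0388 and -3.45 ± 0.57 at an adjusted p of 0.0438 on the log2 scale, and no other marker was. Without Δchat mouse 1, 3 or 4, or without WT mouse 1, 2 or 3, that test called 0 of all genes. Without Δchat mouse 2 it called 1 of the 6 neutrophil markers tested. The fit of the colon libraries tested 4 neutrophil markers.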
